A study of Mus musculus with 15 samples.

Results

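The death receptor genes described here are 9 rows of the gene table, chosen by symbol: the receptors Fas, Tnfrsf1a, Tnfrsf10b, Tnfrsf21, Eda2r and Tnfrsf12a, the adaptor Fadd, the scaffold Pidd1 and the initiator protease Casp8. They are 9 of the 36144 symbols in the table, and 8 of them were among the 15425 genes that were abundant enough to be tested (a level of 1 TPM or more in 3 or more libraries, where TPM is transcripts per 1000000, scaled for transcript length). The libraries came from motor neurons of the lumbar spinal cord, L1 to L3, of FVB mice at postnatal day 6. The neurons carried cholera toxin subunit B, a retrograde label taken up from nerve endings, and were cut out by laser capture, so each library is a bulk sample. There were 5 groups with 3 biological replicates each, which makes 15 libraries. WT mice had the genotype Smn+/+;SMN2;SMNdelta7, and SMA mice, a model of spinal muscular atrophy, had Smn-/-;SMN2;SMNdelta7, so every group carried both human SMN transgenes. WT and SMA mice received vehicle. The treated groups were SMA mice too. SMA+MW150 mice received 5 mg/kg of MW150, which inhibits a p38 kinase. SMA+Pifithrin-alpha mice received 2.2 mg/kg of Pifithrin-alpha, which inhibits p53. SMA+SMN-C3 mice received 3 mg/kg of SMN-C3, which changes the splicing of the SMN2 transgene so that it gives more full-length SMN. Injections into the abdominal cavity were given daily from postnatal day 0. Males and females were used in equal proportion. The labels do not give the number of animals behind a library.

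Death receptors are members of the tumor necrosis factor (TNF) receptor superfamily. Ligand binding brings their cytoplasmic death domains together, these recruit adaptors such as FADD, and FADD in turn gathers and activates caspase-8, which can start apoptosis. Some relatives, EDA2R and the TWEAK receptor TNFRSF12A among them, lack a death domain and signal through TRAF proteins to NF-kB and JNK. Fas, Tnfrsf10b, Eda2r and Pidd1 are known as genes that p53 can activate, and p53 is active in motor neurons of this mouse model, which is the pathway that the study set out to modulate.

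Fas is transcribed from the plus strand of chromosome 19 (ENSMUSG00000024778.13, 34290666 to 34327772 on GRCm38), Eda2r from the minus strand of chromosome X (ENSMUSG00000034457.10, 97333840 to 97377216) and Pidd1 from the minus strand of chromosome 7 (ENSMUSG00000025507.13, 141438113 to 141444025). Of the tested members, Fas, Pidd1, Tnfrsf1a and Eda2r, in that order, had the largest fitted changes between SMA and WT libraries. The promoters of Fas, Eda2r and Pidd1 are printed as the 250 bases before the RefSeq start, 5′ to 3′ on the strand of the gene (GRCm38.p6). That of Tnfrsf1a, which held none of the sequences searched for below, is not printed. Capitals mark a GC box (GGGCGG on either strand) or a TATA box (TATAAA on either strand). The windows are chr19:34290409-34290658 for Fas, chrX:97377210-97377459 for Eda2r and chr7:141444026-141444275 for Pidd1.
Fas promoter: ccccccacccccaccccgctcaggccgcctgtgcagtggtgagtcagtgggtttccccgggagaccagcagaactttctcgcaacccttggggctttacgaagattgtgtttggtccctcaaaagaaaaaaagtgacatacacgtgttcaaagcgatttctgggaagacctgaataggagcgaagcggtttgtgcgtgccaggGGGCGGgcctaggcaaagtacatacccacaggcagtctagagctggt
Eda2r promoter: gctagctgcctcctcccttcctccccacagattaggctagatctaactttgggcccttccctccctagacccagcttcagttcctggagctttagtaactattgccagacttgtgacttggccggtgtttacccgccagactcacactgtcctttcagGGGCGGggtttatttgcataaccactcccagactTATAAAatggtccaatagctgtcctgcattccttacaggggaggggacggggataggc
Pidd1 promoter: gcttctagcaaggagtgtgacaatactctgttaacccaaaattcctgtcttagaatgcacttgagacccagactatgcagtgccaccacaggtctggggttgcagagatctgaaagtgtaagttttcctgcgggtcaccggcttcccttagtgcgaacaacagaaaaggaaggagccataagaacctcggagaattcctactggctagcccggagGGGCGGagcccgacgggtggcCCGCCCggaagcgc
RefSeq promoters were matched for 8 of the 9 genes, all but Tnfrsf10b. A GC box stood in 6 of the 8 (Fas, Eda2r, Pidd1, Fadd, Tnfrsf12a and Tnfrsf21), against 32.7% of 32841 promoters of the same length. In Fas it lay 47 to 42 bases before the start. Eda2r had one 92 to 87 bases before the start and was the only one of the 8 with TATAAA, at 58 to 53 bases before the start, a sequence found in 12.4% of all promoters. The p53 decamer and the NF-kB site, both searched as degenerate patterns on both strands, were in 0 of the 8 windows and in 7.13% and 7.25% of all promoters. These are matches of letters in short windows and say nothing of binding elsewhere in the genes.

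A pair of stretches inside the genes bears on the transcripts described further on. The first is the part of intron that the model Eda2r-204 keeps after exon 6, 82 bases at chrX:97341546-97341627 on the minus strand. Its capitals mark the 6 bases at the exon border, where the coding transcript is spliced. The second, with no capitals, is exon 3 of the model Fas-204, 158 bases at chr19:34310012-34310169 on the plus strand, which lies between exons 2 and 3 of the main coding transcript.
Eda2r-204 intron stretch: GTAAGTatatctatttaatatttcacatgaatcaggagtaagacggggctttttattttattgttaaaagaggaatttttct
Fas-204 exon 3: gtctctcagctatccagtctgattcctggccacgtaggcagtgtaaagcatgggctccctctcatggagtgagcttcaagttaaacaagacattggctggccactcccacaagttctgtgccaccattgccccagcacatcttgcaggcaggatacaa

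The libraries carried the genotype their labels give. Smn1 was at 8.97, 16.5 and 23.3 TPM in WT and at 0 to 1.498 TPM in the 12 libraries from SMA mice. The summed level of 8 motor neuron markers lay between 3408 and 5347 TPM in all libraries, and that of 5 lymphocyte markers was at most 4.36 TPM. Glial RNA was present: 7 astrocyte markers summed to 912 to 2214 TPM and 9 oligodendrocyte lineage markers to 417 to 5353 TPM. Sums of 5 red blood cell markers were 300 to 3548 TPM. In SMA+MW150 3 the oligodendrocyte lineage sum was 5353 TPM, beside a motor neuron sum of 3423 TPM. In SMA 2 the oligodendrocyte lineage and red blood cell sums were 3848 and 3548 TPM, beside a motor neuron sum of 3408 TPM. RNA of mitochondrially encoded genes made up 21.9% of WT 1 and 20.4% of SMA+Pifithrin-alpha 3. Its share was 11.3% in SMA+SMN-C3 1, 12.6% in SMA+Pifithrin-alpha 2 and at most 7.55% elsewhere. As a whole, the tested genes were shifted by a median log2 change of 0.24 between SMA and WT and of 0.31 between SMA+MW150 and WT. The shift was -0.22 with Pifithrin-alpha and -0.23 with SMN-C3 from SMA, and the members are set beside these values. The unit holds no read counts, so sequencing depth is unknown.

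Fas encodes the receptor of Fas ligand. Its level was 0, 3.04 and 2.75 TPM in the 3 WT libraries and 47.8, 21.1 and 16.1 TPM in the 3 SMA libraries. It was 19.8, 15.97 and 14.5 TPM with MW150, and 15.8, 22.9 and 31.3 TPM with Pifithrin-alpha. With SMN-C3 it was 4.44, 4.86 and 2.70 TPM. The SMA, MW150 and Pifithrin-alpha libraries all stood above every WT and every SMN-C3 library, and WT and SMN-C3 values overlapped. Among the 8 tested members Fas had the highest fitted change in SMA and was the 1 member that passed the test there, where 0.363% of all tested genes passed. The log2 change of log2(TPM+1), the scale of every change given here, was 3.42 (SE 0.50, 95% confidence interval 2.36 to 4.47, limma adjusted p 0.0031). The call held in each of 6 fits that left out 1 library and in 8 of 9 other settings; in a fit of the WT and SMA libraries alone it was lost (adjusted p 0.21).

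Against WT, Fas was also the 1 member called with MW150 (log2 2.83, SE 0.50, limma adjusted p 0.026) and with Pifithrin-alpha (log2 3.25, SE 0.50, limma adjusted p 0.013). Of all tested genes 0.143% were called in the first comparison and 0.117% in the second. The SMA call of Fas held in each fit with 1 library left out, whereas these calls did not. With MW150 the call was lost without WT 1 (adjusted p 0.068) and without MW150 library 1, 2 or 3 (0.21, 0.14 and 0.11), with a replicate block (adjusted p 0.055) and with median-of-ratios scaling (0.091). With Pifithrin-alpha it was lost without library 2 of that group (0.084). Both were lost with a pseudocount of 0.1, with no filter on low values, and in fits of only the groups compared.

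With SMN-C3 the Fas change from WT was 0.99 (SE 0.50, 95% confidence interval -0.06 to 2.04, limma adjusted p 0.67) and was not called; it was 0.33 without WT 1, the library listed at 0. No member was called with SMN-C3 against WT by limma, and 1 of 8 had an unadjusted p under 0.05. Of all tested genes 0.0194% were called and 1128, or 7.31%, had an unadjusted p under 0.05. Against SMA, the SMN-C3 change of Fas was -2.43 (SE 0.50, 95% confidence interval -3.48 to -1.38, limma adjusted p 0.13). It missed the threshold with all libraries and passed it without WT 1 and SMA+Pifithrin-alpha 3, the libraries richest in mitochondrial RNA (0.0043), and with array weights (0.0018). Those settings called 166 and 231 of all tested genes in that comparison, instead of 10. Neither WT 1 nor SMA+Pifithrin-alpha 3 belongs to it, and without them the Fas estimate stayed at -2.43. The p rests on a spread estimated over all groups. With MW150 the change from SMA was -0.58 (95% confidence interval -1.64 to 0.47, limma adjusted p 1).

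With Pifithrin-alpha, the log2 difference of Fas from SMA was -0.17 (SE 0.50, 95% confidence interval -1.22 to 0.88, limma adjusted p 0.89), a value that turned to 0.09 with median-of-ratios scaling and to 0.27 without SMA 1. The interval includes no change and also a fall by 1.22, so no sameness is shown. The direct comparison of Pifithrin-alpha with SMN-C3, given at different doses, gave Fas a log2 difference of 2.26 (SE 0.50, 95% confidence interval 1.21 to 3.31, limma adjusted p 0.26). In that comparison limma called 0% of the tested genes, while 1103 genes (7.15%) and 2 of 8 members (Fas and Tnfrsf10b) had an unadjusted p under 0.05. The pattern of Fas under these treatments was known when the genes were grouped, so it is given as a description. The comparisons with WT share the WT libraries and those with SMA share the SMA libraries, so they are not independent of each other.

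**Figure D1:**
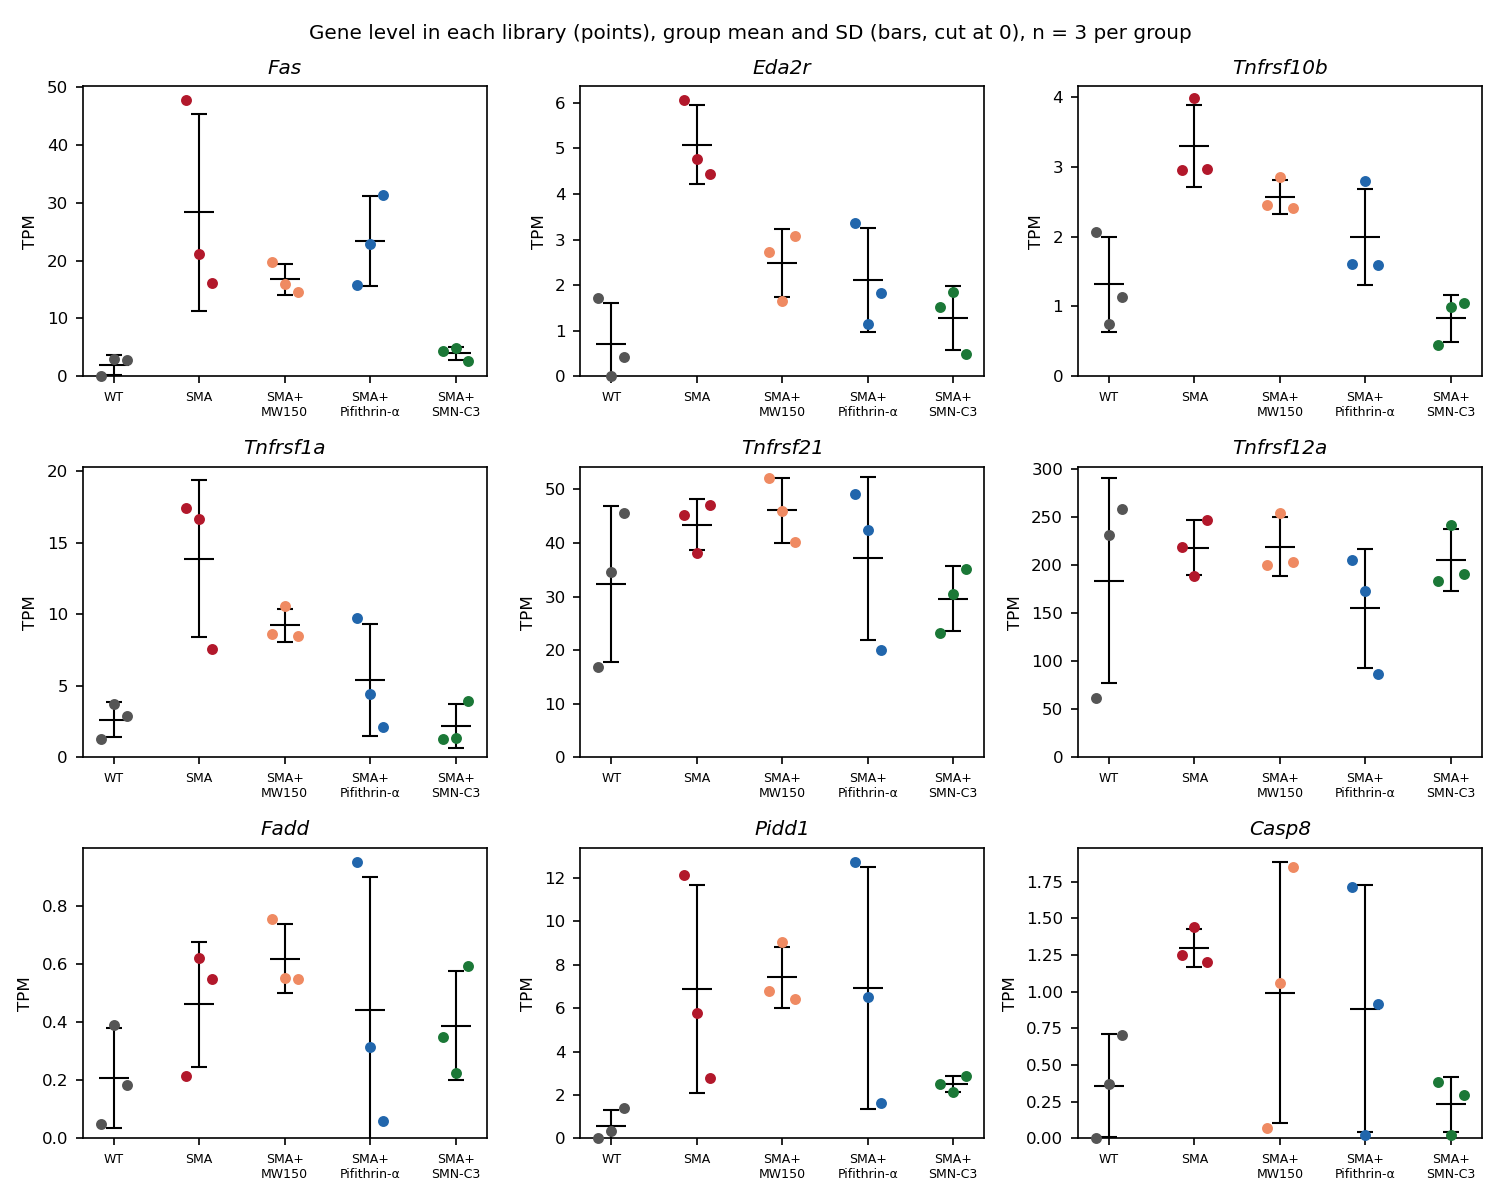
Level of each of the 9 genes in TPM (vertical axes, one scale per gene) in the 15 libraries, by group on the horizontal axis; points are libraries and bars are the group mean and SD, cut at 0, n = 3. Fas lies between 14.5 and 47.8 TPM in the SMA, MW150 and Pifithrin-alpha libraries and at most at 4.86 TPM in the WT and SMN-C3 libraries, whereas Tnfrsf12a and Tnfrsf21 overlap between SMA and WT.

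Tnfrsf1a encodes TNF receptor 1, which carries a death domain and recruits TRADD (ENSMUSG00000030341.17; chromosome 6, 125349362 to 125362484, plus strand). It measured 1.29, 3.70 and 2.89 TPM in the WT libraries and 17.4, 16.7 and 7.57 TPM in the SMA libraries. MW150 libraries held 8.64, 10.6 and 8.50 TPM. Pifithrin-alpha libraries spread from 9.75 over 4.40 to 2.09 TPM, and SMN-C3 libraries held 1.25, 1.33 and 3.96 TPM. The SMA and MW150 ranges lay wholly above the WT range, while the Pifithrin-alpha and SMN-C3 ranges overlapped it. The change was 2.02 in SMA against WT (SE 0.48, limma adjusted p 0.10) and -2.25 with SMN-C3 against SMA (SE 0.48, limma adjusted p 0.13). With Pifithrin-alpha against SMA it was -1.32 (SE 0.48, limma adjusted p 0.46). None of these passed. The SMN-C3 change passed without WT 1 and SMA+Pifithrin-alpha 3 (0.013) and with array weights (0.018). The Pifithrin-alpha change passed with array weights (0.036). Over all tested genes, SMN-C3 against SMA had 166 and 231 calls in these settings, instead of 10. Pifithrin-alpha against SMA had 1574 with array weights, instead of 1. In SMN-C3 against SMA, which holds neither of the left-out libraries, the Tnfrsf1a estimate stayed at -2.25 without them.

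Tnfrsf10b encodes the mouse TRAIL receptor, also with a death domain (ENSMUSG00000022074.6; chromosome 14, 69767472 to 69784411, plus strand). Its level was 2.06, 0.745 and 1.14 TPM in WT, 2.95, 3.98 and 2.97 TPM in SMA and 2.45, 2.85 and 2.41 TPM with MW150. With Pifithrin-alpha it was 1.61, 2.79 and 1.59 TPM, and with SMN-C3 0.442, 0.996 and 1.05 TPM. The 3 SMA libraries stood above all libraries of each other group, but the levels were low and the differences small. The change in SMA against WT was 0.92 (SE 0.33, limma adjusted p 0.30). With SMN-C3 against SMA it was -1.24 (SE 0.33, limma adjusted p 0.23).

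Tnfrsf21, which encodes death receptor 6, was more abundant, with overlapping ranges in SMA and WT (ENSMUSG00000023915.5; chromosome 17, 43016555 to 43089189, plus strand). It measured 16.8, 34.6 and 45.6 TPM in the WT libraries and 45.3, 38.1 and 47.02 TPM in the SMA libraries. Levels were 52.2, 45.99 and 40.1 TPM with MW150 and 49.1, 42.4 and 19.97 TPM with Pifithrin-alpha, and SMN-C3 libraries held 23.2, 30.5 and 35.2 TPM. The lowest values of WT and Pifithrin-alpha came from WT 1 and SMA+Pifithrin-alpha 3, the libraries richest in mitochondrial RNA. The SMA change from WT was 0.52 (95% confidence interval -0.25 to 1.29, limma adjusted p 0.49).

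Eda2r encodes the receptor of the A2 form of ectodysplasin. It measured 1.73, 0 and 0.429 TPM in the WT libraries and 6.05, 4.77 and 4.43 TPM in the SMA libraries. The levels were 2.73, 1.66 and 3.08 TPM with MW150 and 3.36, 1.15 and 1.82 TPM with Pifithrin-alpha, and SMN-C3 libraries held 1.51, 1.84 and 0.495 TPM. The 3 SMA libraries were the highest of all 15, and each treated group lay below them. The change from WT was 1.94 in SMA (SE 0.42, 95% confidence interval 1.06 to 2.82, limma adjusted p 0.060), short of the threshold. It passed without WT 1 (0.026), without WT 1 and SMA+Pifithrin-alpha 3 (0.014) and with array weights (0.0068). Over all tested genes, leaving out that pair gave 88 calls and array weights gave 100, instead of 56. The difference from SMA was -0.82 with MW150 (limma adjusted p 1), -1.02 with Pifithrin-alpha (0.46) and -1.46 with SMN-C3 (0.27).

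Tnfrsf12a, the TWEAK receptor, was the most abundant of the 9 genes in TPM, a unit that is per length (ENSMUSG00000023905.15; chromosome 17, 23675445 to 23677468, minus strand). It measured 61.2, 232 and 258 TPM in the WT libraries and 218, 189 and 247 TPM in the SMA libraries. With MW150 it was at 199.9, 254 and 203 TPM, with Pifithrin-alpha at 205, 173 and 86.2 TPM and with SMN-C3 at 183, 242 and 190.4 TPM. Apart from WT 1 and SMA+Pifithrin-alpha 3, every library lay between 173 and 258 TPM. The SMA change from WT was 0.49 (95% confidence interval -0.41 to 1.39, limma adjusted p 0.57), and it was -0.17 without WT 1.

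Pidd1 encodes a death domain scaffold that activates caspase-2. It measured 0, 0.320 and 1.41 TPM in the WT libraries and 12.1, 5.77 and 2.77 TPM in the SMA libraries. The levels were 6.80, 9.04 and 6.41 TPM with MW150 and 12.7, 6.50 and 1.61 TPM with Pifithrin-alpha, and SMN-C3 libraries held 2.51, 2.15 and 2.87 TPM. Every library from SMA mice, treated or not, lay above the highest WT library. Against WT the change was 2.24 in SMA (SE 0.55, limma adjusted p 0.12) and 2.50 with MW150 (SE 0.55, limma adjusted p 0.10). With Pifithrin-alpha it was 2.13 (SE 0.55, limma adjusted p 0.36), and 2.79 without SMA+Pifithrin-alpha 3, which passed (0.036). With SMN-C3 it was 1.25 (SE 0.55, limma adjusted p 0.67). Array weights brought the MW150 and Pifithrin-alpha changes past the threshold (0.0056 and 0.0061). In these comparisons that setting called 91 and 609 of all tested genes, instead of 22 and 18.

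The core of the death-inducing complex was scarce. Fadd, the adaptor between receptors and caspase-8 (ENSMUSG00000031077.7; chromosome 7, 144577318 to 144582463, minus strand), stayed below 1 TPM in all 15 libraries and was not tested. Its range was 0.0482 to 0.390 TPM in WT, 0.215 to 0.619 TPM in SMA and 0.0607 to 0.950 TPM over the treated groups, with overlap between all groups except WT and MW150 (0.546 to 0.755 TPM). Casp8 (ENSMUSG00000026029.14; chromosome 1, 58795374 to 58847503, plus strand) measured 0, 0.370 and 0.704 TPM in the WT libraries and 1.25, 1.44 and 1.20 TPM in the SMA libraries. It was at 0.0716, 1.06 and 1.85 TPM with MW150 and 1.71, 0.0255 and 0.919 TPM with Pifithrin-alpha, and SMN-C3 libraries held 0.385, 0.0226 and 0.292 TPM. SMA lay above WT and above SMN-C3 without overlap, whereas the other treated groups reached from near 0 to above SMA. The SMA change from WT was 0.79 (SE 0.42, limma adjusted p 0.40), and with SMN-C3 it was -0.91 from SMA (SE 0.42, limma adjusted p 0.57). Casp8 reached 1 TPM in 6 libraries, all from SMA mice that did not receive SMN-C3, so it was tested only because it was higher there. Gene models overlap Fas, Casp8 and, on the opposite strand, Fadd (Gm27818, Gm37760 and Faddos), and reads from such pairs may not be told apart.

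Set side by side, all 8 tested members were higher in SMA than in WT, with a median change of 1.43, beside 0.24 over all tested genes, of which 66.5% were higher. In 6 of the 8 the SMA and WT ranges did not overlap, with SMA above, as for 14.5% of all tested genes; the exceptions were Tnfrsf21 and Tnfrsf12a. With SMN-C3 all 8 were lower than in SMA, with a median of -1.12 beside -0.23 over all genes, of which 26.6% were higher. In that comparison limma called 0 of 8 members, beside 0.0648% of all genes, and 5 of 8 had an unadjusted p under 0.05, beside 8.53% of all genes. In 6 of 8 the SMN-C3 range lay wholly below the SMA range, beside 18.2% of all genes. These counts leave out Fadd and are a description, since members such as Casp8 were tested only through the groups where they were high.

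For Pifithrin-alpha against SMA the median was -0.47, beside -0.22 over all genes, with 0 of 8 called by limma, beside 0.00648% of all genes, and 2 of 8 (Eda2r and Tnfrsf1a) at an unadjusted p under 0.05, beside 10.7% of all genes. For MW150 against SMA the median was -0.29, beside 0.06, with 0 of 8 called and 0 of 8 at an unadjusted p under 0.05, where 0.00648% of all genes were called and 1.90% had such a p. In both comparisons the treated range lay wholly below SMA for Eda2r and Tnfrsf10b, which is 2 of 8 members, beside 9.76% of all genes with Pifithrin-alpha and 3.41% with MW150. Against WT, the range lay wholly above for Fas, Tnfrsf10b, Tnfrsf1a and Pidd1 with MW150 (17.9% of all genes), for Fas and Pidd1 with Pifithrin-alpha (4.79%) and for Pidd1 with SMN-C3 (4.03%). Between the treatments, Fas and Tnfrsf10b lay wholly higher with Pifithrin-alpha than with SMN-C3 (9.83% of all genes). The member median against WT was 0.89 with MW150, beside 0.31 over all genes. It was 0.55 beside 0.02 with Pifithrin-alpha, and 0.18 beside -0.0042 with SMN-C3.

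**Figure D2:**
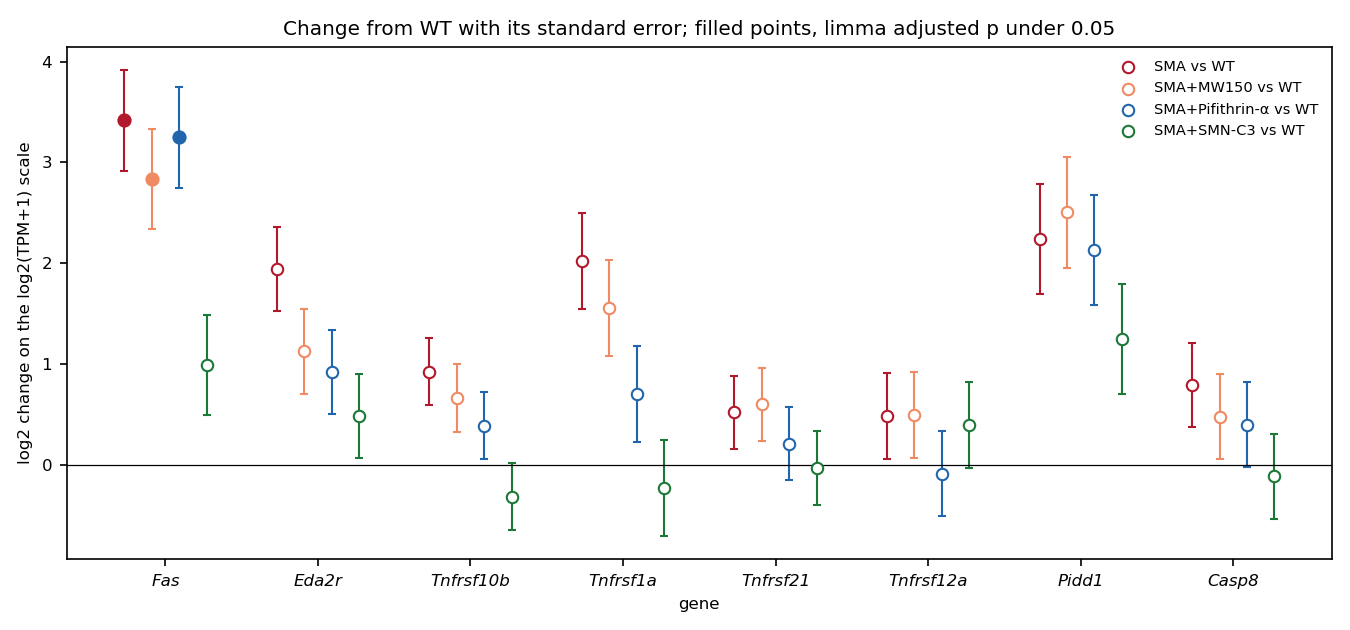
Log2 change from WT (log2(TPM+1) scale) for the 8 tested members in SMA, SMA+MW150, SMA+Pifithrin-alpha and SMA+SMN-C3, from one limma fit to 15 libraries. Bars are the standard error, which is narrower than the 95% confidence interval. Fas is at 3.42, 2.83 and 3.25 in the first 3 groups and at 0.99 with SMN-C3, while Eda2r is at 1.94 in SMA and between 0.48 and 1.12 in the treated groups.

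The transcript table separates models of each gene, as estimates that divide reads between overlapping models. Fas was carried by Fas-201, the coding transcript with 9 exons, which made up 88.6% of Fas in SMA and 88.2% with MW150. Its share was 96.2% in the Pifithrin-alpha group, 95.8% in the SMN-C3 group and 74.8% in WT. Fas-204, annotated as a target of nonsense-mediated decay and holding the 158-base exon printed above, was at 4.18, 4.36 and 1.04 TPM in SMA and at 1.33, 1.78 and 2.83 TPM with MW150. It was at 0.17, 0 and 2.47 TPM with Pifithrin-alpha, and listed at 0 in the WT and SMN-C3 libraries. Counting only coding transcripts, the Fas change between SMA and WT was 3.27 (limma adjusted p 0.0032).

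For Eda2r the picture differed. In WT, Eda2r-201, the coding transcript with 8 exons, made up 100% of the gene. In SMA it made up 31.2%, and Eda2r-204, a model of 779 bases with the retained intron stretch printed above, made up 61.2%. Eda2r-204 was at 2.39, 3.91 and 3.03 TPM in SMA, at 1.36, 0.18 and 1.08 TPM with MW150 and at 0.27, 0.42 and 0 TPM with Pifithrin-alpha. It was at 0.05, 1.73 and 0.11 TPM with SMN-C3 and listed at 0 in WT. Coding Eda2r was at 3.16, 0.858 and 0.883 TPM in SMA and at 1.73, 0 and 0.429 TPM in WT, ranges that overlap, with a change of 0.63 (limma adjusted p 0.43). When only coding transcripts were counted, its change from SMA was 0.02 with MW150 and 2.3e-04 with Pifithrin-alpha. In these estimates the lower gene-level values of those groups were assigned to the noncoding models. How well reads were divided between the models was not tested. With SMN-C3 the change of coding Eda2r from SMA was -0.95. Tnfrsf1a was mostly Tnfrsf1a-201, at 92.3% in SMA and 96.3% in WT. Pidd1-201 made up 40.3% of Pidd1 in WT and 58.6% in SMA. Its share was 94.4% with SMN-C3, 43.8% with Pifithrin-alpha and 42.7% with MW150. In the WT libraries Pidd1-201 stood at 0, 0 and 0.697 TPM, so its WT share rests on WT 3 alone, at a level under 1 TPM. Without the noncoding models the SMA change of Pidd1 was 1.79 (limma adjusted p 0.17).

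**Figure D3:**
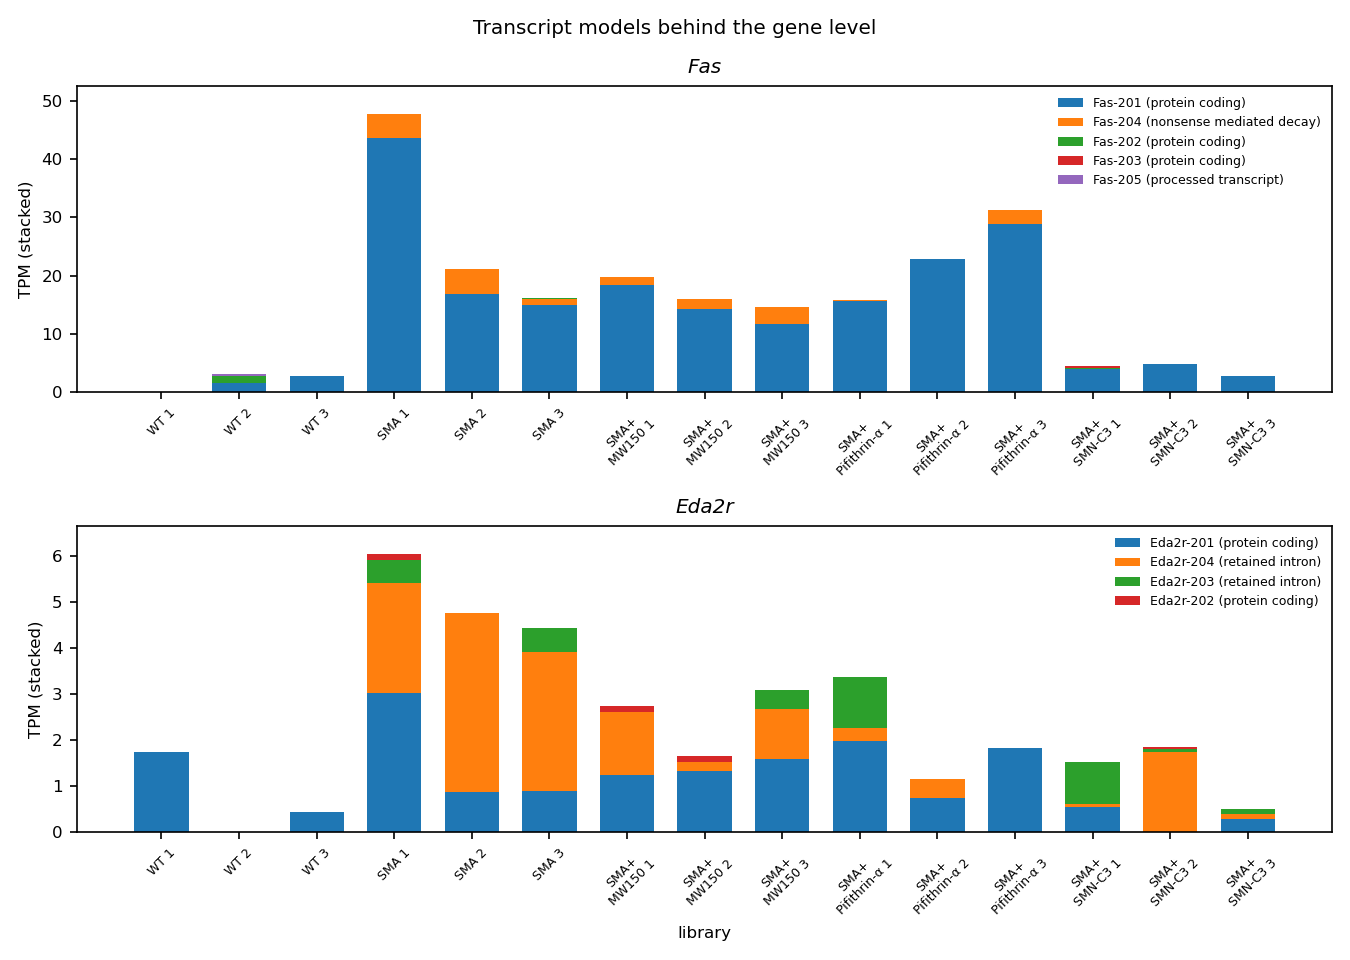
Stacked TPM of the annotated transcript models of Fas and Eda2r in each of the 15 libraries, colored by model. Fas-201 fills most of the Fas bars. Eda2r-204, the model with a retained intron, fills most of the bars in SMA 2, SMA 3 and SMA+SMN-C3 2. In SMA+MW150 1 it is at 1.36 TPM beside 1.24 TPM of Eda2r-201, and it is at 0 in the WT libraries.

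Markers of microglia and macrophages, cells that also express Tnfrsf1a and Casp8, moved with the groups. The 10 markers summed to 56.0 to 88.7 TPM in WT, and to 160 to 191 TPM in SMA. MW150 libraries held 123 to 166 TPM, Pifithrin-alpha libraries 67.6 to 123 TPM and SMN-C3 libraries 88.7 to 114 TPM. No marker was at 0 in a whole group. In SMA against WT 10 of 10 were higher, beside 66.5% of all tested genes. Of the 10 markers 5 had an unadjusted limma p under 0.05, beside 13.5% of all tested genes. Among them 1, C1qc, was called, beside 0.363% of all tested genes. Across the Pifithrin-alpha libraries 1, 2 and 3 the sum was 123, 80.6 and 67.6 TPM, with Tnfrsf1a at 9.75, 4.40 and 2.09 TPM and Fas at 15.8, 22.9 and 31.3 TPM. The order of Fas within a group differed between groups: with MW150 the highest Fas, 19.8 TPM, stood at the highest sum, 166 TPM, and in WT and with SMN-C3 the highest and the lowest Fas stood at the highest and the lowest sum. In SMA the highest Fas, 47.8 TPM, stood at the middle sum, 172 TPM. The order of Tnfrsf1a differed between groups too. With MW150 and with SMN-C3 its highest value stood at the lowest sum, whereas in WT it stood at the highest. Across the Pifithrin-alpha libraries 1, 2 and 3 the share of mitochondrial RNA also changed, from 5.78% over 12.6% to 20.4%. Astrocyte markers were higher in SMA for 7 of 7 genes and oligodendrocyte lineage markers for 7 of 9, with 0 called by limma and 2 and 1 at an unadjusted p under 0.05. The part of these cells in the levels of the members was not tested. In bulk samples fewer cells of a type and less RNA per cell cannot be told apart.

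**Figure D4:**
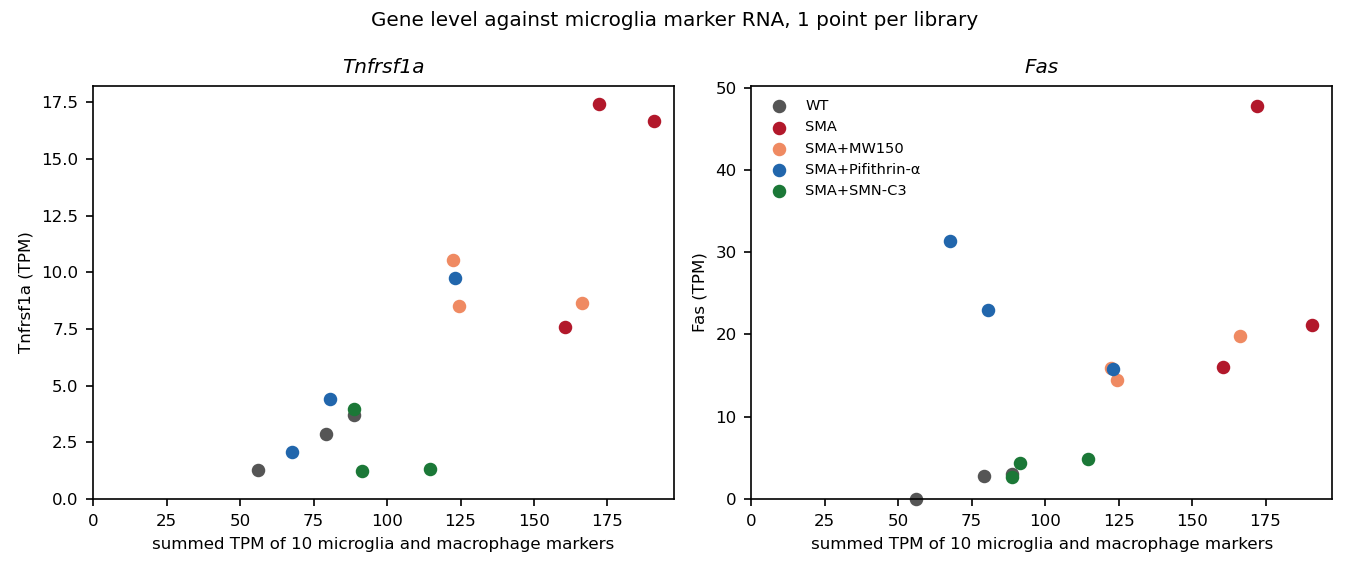
Level of Fas and of Tnfrsf1a (TPM, vertical axes) against the summed TPM of 10 microglia and macrophage markers (horizontal axis), one point per library and one color per group. The SMA libraries have sums of 160 to 191 TPM, above the 56.0 to 88.7 TPM of WT; within groups Fas is highest at the lowest sum with Pifithrin-alpha and at the highest sum in WT, with MW150 and with SMN-C3.

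Among ligands, other receptors, adaptors, inhibitors, caspases and the NF-kB and JNK branch, limma called no gene in any of the 8 comparisons, and the lists are given for SMA against WT, where 13.5% of all tested genes had an unadjusted p under 0.05. In that comparison 66.5% of all tested genes were higher, with a median change of 0.24, beside which each list is to be read. Of 10 listed ligands 5 were tested, with 2 higher and 3 lower, a median change of -0.08 and 1 at an unadjusted p under 0.05. Among them was Tnfsf12, which encodes TWEAK, the ligand of Tnfrsf12a, with a log2 change of 0.33 (limma adjusted p 0.71). Fasl, the ligand of Fas, is named after its values were seen: it was listed at 0 in all 3 WT libraries and stood at 0.654, 0.899 and 0.758 TPM in SMA (limma adjusted p 0.37). With SMN-C3 Fasl was at 1.61, 2.36 and 0.431 TPM. It stayed below 1 TPM in every WT and SMA library, so it was tested only through treated libraries. Against WT its unadjusted limma p was under 0.05 in SMA, with MW150 and with SMN-C3, but not with Pifithrin-alpha. For no treatment against SMA was that p under 0.05. As Fasl was picked on these values and passed the filter only through treated libraries, its p-values are a description and no evidence. Of 22 other receptors of the superfamily 15 were tested, with 11 higher and 4 lower and a median of 0.32; 2 had an unadjusted p under 0.05, and the most abundant, Tnfrsf19 and Tnfrsf14, had log2 differences of 0.17 and -0.32 (limma adjusted p 0.85 and 0.74).

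Of 14 adaptors, necroptosis genes and partners of Pidd1, 11 were tested, 8 higher and 3 lower, with a median of 0.15 and 1 at an unadjusted p under 0.05. The log2 difference was 0.44 for Tradd, the adaptor of TNF receptor 1, and -0.25 for Traf3, a signal transducer of the family (limma adjusted p 0.64 and 0.67). Of 12 inhibitors of death receptor signalling 11 were tested, 7 higher and 4 lower, with a median of 0.10 and 2 at an unadjusted p under 0.05. Faim2, a neuronal inhibitor of Fas signalling, was at 78.3 ± 16.3 TPM in SMA and 40.1 ± 27.4 TPM in WT (SD, n = 3; log2 1.20, limma adjusted p 0.35), and Faim was at 0.12 on the log2 scale (limma adjusted p 0.85). All 8 downstream caspases and mitochondrial genes were tested, 7 higher and 1 lower, with a median of 0.50 and 1 at an unadjusted p under 0.05. The lower one was Cycs, cytochrome c (-0.83, limma adjusted p 0.38), and Diablo, which relieves inhibition of caspases, was at 0.42 (limma adjusted p 0.45). Of 14 genes of the NF-kB and JNK branch, all tested, 7 were higher and 7 lower, with a median of 0.09 and 1 at an unadjusted p under 0.05; Jun was at -0.01 and Mapk9, a JNK kinase, at 0.20 (limma adjusted p 0.99 and 0.67).

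For reference, 12 genes of the p53 pathway were read in the same fit, picked with their earlier results known, so their direction is no independent evidence. In SMA against WT 11 were higher and 1 lower, with a median of 1.70, and 5 were called: Cdkn1a (4.51), Pmaip1 (2.71), Aen (2.20), Ccng1 (1.75) and Mdm2 (1.69), with limma adjusted p from 1.8e-05 to 0.025. Cdkn1a, the cell cycle inhibitor p21, stood at 1430, 1140.3 and 590.4 TPM in SMA and at 709, 515 and 194 TPM with Pifithrin-alpha. SMN-C3 libraries held 317, 313 and 324 TPM of Cdkn1a, and MW150 libraries 1115, 898 and 601 TPM. Against WT with Pifithrin-alpha, 3 were called along with Fas: Cdkn1a (3.26), Pmaip1 (2.72) and Ccng1 (2.02). With MW150 against WT, 2 were called, Cdkn1a and Mdm2, and with SMN-C3 1, Cdkn1a. Over all tested genes the called share against WT was 0.363% in SMA and 0.117% for Pifithrin-alpha. That share was 0.143% for MW150 and 0.0194% for SMN-C3. None of the 12 was called by limma for a treatment against SMA. Calls were rare there over all tested genes, at 0.0648% for SMN-C3 and 0.00648% for either other treatment. A count of 0 is therefore uninformative. All 12 were lower for SMN-C3 than in SMA, where 26.6% of all tested genes were higher. Of the 12, 5 had an unadjusted limma p under 0.05 (8.53% of all genes). For Pifithrin-alpha 8 were lower and 4 higher, with 3 at such a p (10.7%). For MW150 9 were lower and 3 higher, with 0 at such a p (1.90%).

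Genes whose levels ran most like Fas were ranked by Pearson's r of log2(TPM+1) over the 15 libraries, which share group differences and library composition. The 5 highest were Plek2 (0.94), 1700007K13Rik (0.91), Gsto1 (0.91), Bloc1s2 (0.91) and 2310022A10Rik (0.91). Plek2, a pleckstrin family gene, averaged 2.81 TPM in WT and 44.8 TPM in SMA. Its means were 20.2 TPM in the MW150, 22.0 TPM in the Pifithrin-alpha and 5.04 TPM in the SMN-C3 group. Of the other members, Pidd1 was nearest to Fas (0.78, rank 140 of all tested genes), followed by Tnfrsf1a (0.69), Eda2r (0.63) and Tnfrsf10b (0.58), and Tnfrsf12a was farthest (0.28). For Eda2r the 5 highest were Mavs (0.86), Wdr45b (0.84), Rbm43 (0.83), Robo3 (0.82) and Tor1aip1 (0.82), and the nearest member was Tnfrsf10b (0.69).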

How the data were processed

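Poly(A) RNA of laser-captured motor neurons was sequenced as 15 libraries, 3 in each of 5 groups. The authors deposited TPM values (transcripts per 1000000) for genes and for transcripts. Per the submitters' processing notes the tools were kallisto 0.44.0 and DESeq2, the latter with no role given, on GRCm38.p6 or mm10. The index is not given in the sources used here; 98.5% of the transcript identifiers matched GENCODE M21, from which coordinates and transcript types were taken. TPM holds no counts, so no count model was used and depth and counting error are unknown.

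The 15425 genes that reached 1 TPM in 3 or more libraries were fitted as log2(TPM+1) with limma 3.58.1 in R 4.3.3, with 1 mean per group over all 15 libraries and moderated variances with a trend. Tests were two-sided. P-values were adjusted with Benjamini-Hochberg over all tested genes of a comparison, and an adjusted p below 0.05 was a call. There were 8 comparisons. Tables and figures used Python 3.11.15, pandas 2.3.3 and matplotlib 3.10.9. The fit was tested on simulated data. The labels call the replicates biological and do not say whether animals were pooled.

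The members, the pathway lists, the markers and the rule for named genes were chosen with earlier results of these data known. Named were the 9 members, Smn1, the called genes and the 2 most abundant tested genes of each pathway list, and the 5 nearest genes by Pearson's r to Fas and Eda2r. A gene that this rule names in the ligand list is not reported here. Alternatives were a pseudocount of 0.1, no filter, a mean of at least 5 TPM, median-of-ratios scaling, TPM without 13 mitochondrial genes, a replicate block, limma's array weights (gene-by-gene algorithm, since the default did not converge), a fit of only the groups compared and leaving out each library. A pair left out together (WT 1 and SMA+Pifithrin-alpha 3) and coding transcripts alone were added after seeing the data. Deviations of same-numbered libraries correlated above 0.1 for every number only in SMN-C3 against WT (r of 0.285, 0.105 and 0.182 across genes); the labels give the numbers no meaning, and the block changed no member call there.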

Additional observations from a re-analysis of the deposited data

How the results depend on the processing

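Members called were counted again under each alternative; the cause of a change was not tested. For SMA against WT the count of 1 became 2 with array weights and 0 with only the groups compared, and ranged from 1 to 2 when libraries were left out, with 2 (Fas and Eda2r) without WT 1. For MW150 against WT it was 0 with a pseudocount of 0.1, no filter, median-of-ratios scaling, the replicate block and only the groups compared, 2 with array weights, and 0 to 1 with libraries left out. For Pifithrin-alpha against WT it was 0 with a pseudocount of 0.1, no filter and only the groups compared, 2 with array weights, and 0 to 2 with libraries left out (0 without SMA+Pifithrin-alpha 2, 2 without SMA+Pifithrin-alpha 3). Against SMA, array weights gave 2 for Pifithrin-alpha and 4 for SMN-C3 instead of 0, and SMN-C3 ranged from 0 to 2 with libraries left out. For Pifithrin-alpha against SMN-C3 array weights gave 3. Array weights also raised the calls over all 15425 tested genes. Against WT they rose to 100 from 56 in SMA, to 91 from 22 with MW150 and to 609 from 18 with Pifithrin-alpha. Against SMA they rose to 1574 from 1 with Pifithrin-alpha and to 231 from 10 with SMN-C3. In Pifithrin-alpha against SMN-C3 they rose to 2341 from 0. Without WT 1 and SMA+Pifithrin-alpha 3, SMN-C3 against SMA, which holds neither library, had 166 calls over all genes. A fit of only the groups compared gave 7 in SMA against WT. The replicate block, which takes the replicate number as a term, changed no other member call; the numbers did not pair the other groups (r of -0.34 to 0.24).

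Some log2 changes turned sign; none of these was called with all libraries. With array weights, Tnfrsf12a was -0.035, -0.032 and -0.18 in SMA, MW150 and SMN-C3 against WT, Casp8 was -0.40 in Pifithrin-alpha against WT and -0.14 against SMN-C3, and Pidd1 was 0.30 in Pifithrin-alpha against SMA. With median-of-ratios scaling, Tnfrsf12a was -0.075 and 0.18 in MW150 and SMN-C3 against SMA, and Fas was 0.091 and Pidd1 0.066 in Pifithrin-alpha against SMA. With coding transcripts only, Eda2r was 0.019 and 2.3e-04 in MW150 and Pifithrin-alpha against SMA and -0.31 in SMN-C3 against WT, and in MW150 against SMA Pidd1 was -0.062 and Tnfrsf12a -0.00095. With libraries left out, ranges that crossed 0 were, against WT, Tnfrsf12a -0.17 to 0.86 (SMA), -0.17 to 0.86 (MW150), -0.75 to 0.29 (Pifithrin-alpha) and -0.26 to 0.77 (SMN-C3), Tnfrsf21 -0.19 to 0.59 (Pifithrin-alpha) and -0.43 to 0.26 (SMN-C3), and Casp8 -0.32 to 0.064 (SMN-C3). Against SMA they were Tnfrsf21 -0.011 to 0.18, Tnfrsf12a -0.11 to 0.10, Pidd1 -0.18 to 0.72 and Casp8 -0.63 to 0.079 (MW150), Fas -0.48 to 0.27, Tnfrsf21 -0.55 to 0.074 and Pidd1 -0.65 to 0.55 (Pifithrin-alpha) and Tnfrsf12a -0.21 to 0.0029 (SMN-C3). Tnfrsf21 ranged from -0.0020 to 0.63 in Pifithrin-alpha against SMN-C3. TPM gives no depth, so levels near 1 TPM carry an error that cannot be stated.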
